A study of Mus musculus with 6 samples.

Results

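Endothelin, coagulation and plasminogen genes were followed across mouse macrophages given an inflammatory lipid and siRNAs against histone-modifying enzymes. The members were taken by name from the deposited table: Edn1, F3, F7, F10, F13a1, Thbd, Serpinb2, Plau and Plaur, which are 9 of 23282 gene symbols. Where a symbol had several transcripts, the one with the highest mean over the 6 columns stood for it. No measured value entered the choice by name, although earlier results of these data were known when it was made.

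The cells were peritoneal macrophages from female C57BL/6 mice, drawn into the peritoneum by thioglycollate, an irritant broth. They received siRNA for 48 hours against Smyd5 (siSmyd5, a histone H4 lysine 20 methyltransferase), against Phf2 (siPhf2, a histone demethylase) or as a control (siCtl). Each siRNA arm had 1 library with KLA and 1 with vehicle. KLA, Kdo2-lipid A, is the active core of bacterial lipopolysaccharide and acts on the receptor TLR4; cells had it for 4 hours, at 100 ng per ml. No group has a replicate, and the sources used here do not say whether libraries came from separate animals or cultures.

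Endothelin-1, encoded by Edn1, is a vasoconstrictor peptide best known from endothelium. Coagulation begins when tissue factor (F3) binds factor VII (F7) and activates factor X (F10), which turns prothrombin into thrombin; factor XIII (F13a1) cross-links the fibrin that thrombin makes, and thrombomodulin (Thbd) turns thrombin towards an anticoagulant role. Clots are dissolved by plasmin, which urokinase (Plau) releases from plasminogen at its surface receptor (Plaur), while Serpinb2 encodes an inhibitor of urokinase, PAI-2. Activated macrophages are known for making tissue factor, urokinase and PAI-2.

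The promoters of 4 KLA-raised members are shown because they differ in the motifs they hold. Each is the 250 bases before the annotated start, from RefSeq on GRCm38.p6, plus strand, at chr13:42301226-42301475 (Edn1), chr3:121723287-121723536 (F3), chr1:107511173-107511422 (Serpinb2, first of its overlapping windows) and chr7:24462233-24462482 (Plaur). Capitals mark matches on either strand to 6 searched motifs.
Edn1: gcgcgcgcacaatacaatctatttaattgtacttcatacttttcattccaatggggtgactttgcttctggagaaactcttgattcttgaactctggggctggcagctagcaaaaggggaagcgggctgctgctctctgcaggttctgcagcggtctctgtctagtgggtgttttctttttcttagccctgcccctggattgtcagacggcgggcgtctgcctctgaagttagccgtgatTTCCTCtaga
F3: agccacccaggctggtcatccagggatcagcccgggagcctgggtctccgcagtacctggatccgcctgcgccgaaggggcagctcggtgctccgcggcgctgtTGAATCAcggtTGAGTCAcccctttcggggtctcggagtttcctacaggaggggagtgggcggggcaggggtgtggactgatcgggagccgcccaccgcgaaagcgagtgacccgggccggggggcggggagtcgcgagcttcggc
Serpinb2: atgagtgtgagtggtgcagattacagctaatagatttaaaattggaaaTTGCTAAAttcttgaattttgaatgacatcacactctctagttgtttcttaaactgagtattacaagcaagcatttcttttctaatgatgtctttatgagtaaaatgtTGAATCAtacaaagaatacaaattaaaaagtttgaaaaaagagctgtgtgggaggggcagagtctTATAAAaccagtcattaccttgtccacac
Plaur: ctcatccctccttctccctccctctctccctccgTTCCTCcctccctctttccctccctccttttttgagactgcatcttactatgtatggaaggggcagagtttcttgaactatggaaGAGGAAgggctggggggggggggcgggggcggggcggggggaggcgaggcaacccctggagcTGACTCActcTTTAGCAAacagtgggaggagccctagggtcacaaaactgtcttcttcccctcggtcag
The AP-1 motif TGANTCA, read on both strands, lies in 3 of the 7 members with a window (F3, Serpinb2 and Plaur), and in 6.75% of all 32851 promoter windows. F3 holds 2 copies and the others 1. The Serpinb2 window also holds TATAAA, found in 12.4% of windows, and TTGCNNAA, a C/EBP motif that Plaur shares and 9.56% of windows hold. The capitals in the Edn1 window are an ETS motif (GAGGAA on the other strand), as are the first pair in Plaur; 23.3% of windows hold one. The kappa B motif was searched as GGGRNWYYCC (R is A or G, W is A or T, Y is C or T, N any base). This pattern, found in 3.90% of windows, and TGACGT, found in 6.47%, had no match in the 7 members. Looser forms of the kappa B motif were not searched. Where motifs overlapped, each was counted. These letters are a description of the windows, not binding sites. The listed windows do not include Thbd or Plau.

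Reads recovered for the genes in the table came to between 420149 and 1429509 a library. In each library they are fewer than the tag total that turns its values into whole reads. Total reads, here and below, means these recovered reads and not all tags of a library. The ribosomal RNA precursor Rn45s took 71.6% (KLA) and 66.7% (vehicle) of recovered reads in the libraries labelled siPhf2. Its share was 0.621% to 1.20% in the other 4. As a share of all tags, Rn45s would come to less. Without it the siPhf2 libraries held 119144 (KLA) and 192420 (vehicle) reads, against at least 910906 elsewhere, so 3 reads there stand for 21.6 and 12.2 CPM (the usual per-library scale of reads, here after TMM correction for composition), against 1.23 to 2.13 elsewhere. In the siCtl and siPhf2 columns the printed totals belong to each other's values: with their own totals at most 2.43% of values are whole reads, and with each other's total 100% are. Those 4 libraries are therefore called by their labels, and every siSmyd5 or siPhf2 difference from siCtl depends on the labels being right. The targeted genes do not bear out every label. With KLA, Smyd5 stood at 14.2 CPM in siSmyd5 against 12.9 CPM in siCtl (20 reads against 29), a ratio of 1.10 (95% counting interval 0.592 to 2.02), which shows no lower level. With vehicle it was lower, at 5.95 CPM in siSmyd5 against 18.0 CPM in siCtl (9 reads against 44), a ratio of 0.330 (0.141 to 0.684). The other target, Phf2, was lower in siSmyd5 than in siCtl with KLA (34 reads against 120), a ratio of 0.454 (0.300 to 0.669). Its ratio there with vehicle was 0.741 (0.523 to 1.04). Phf2 stood at 57.7 CPM in the library labelled siPhf2 against 53.2 CPM in siCtl with KLA (8 reads against 120), a ratio of 1.083 (0.457 to 2.20). With vehicle it was higher, at 118 CPM in the library labelled siPhf2 against 46.4 CPM in siCtl (29 reads against 113), a ratio of 2.54 (1.63 to 3.85). Per total reads, Rn45s included, Phf2 was lower in the libraries labelled siPhf2, at 19.0 against 83.9 CPM with KLA and 50.3 against 83.1 CPM with vehicle. Macrophage markers summed to 3668 to 4795 CPM with KLA and 3506 to 4865 CPM with vehicle, with reads from all 7 in the table. Fibroblast markers summed to 346 to 939 CPM with KLA and 496 to 898 CPM with vehicle, and neutrophil markers to 0 to 98.5 and 32.5 to 116 CPM. The part of such cells in the members' levels was not tested. All 5 hepatocyte markers were at 0 reads. The platelet list summed to at most 1.42 CPM with KLA and 3.30 CPM with vehicle, with Gp9 and Ppbp among the genes at 0.

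KLA raised 6 of the 8 members tested and lowered 1. Averaged over the siRNA arms, Edn1, F3, F10, Serpinb2, Plau and Plaur rose, Thbd fell and F7 did not pass. Of all 7995 genes tested, 15.8% passed, 11.2% upward and 4.6% downward; 70.8% of those that passed rose, against 55.5% when libraries were scaled to total reads and 53.2% when scaled to reads without Rn45s. The tested members' median log2 fold change was 1.70, beside -0.03 over all genes. The test was edgeR's quasi-likelihood test with Benjamini-Hochberg adjustment at 0.05, on genes averaging 10 or more reads; F13a1, at a mean of 5.33 reads, was not tested. Differences between the arms' KLA responses enter the residual of this fit beside library noise.

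**Figure D1:**
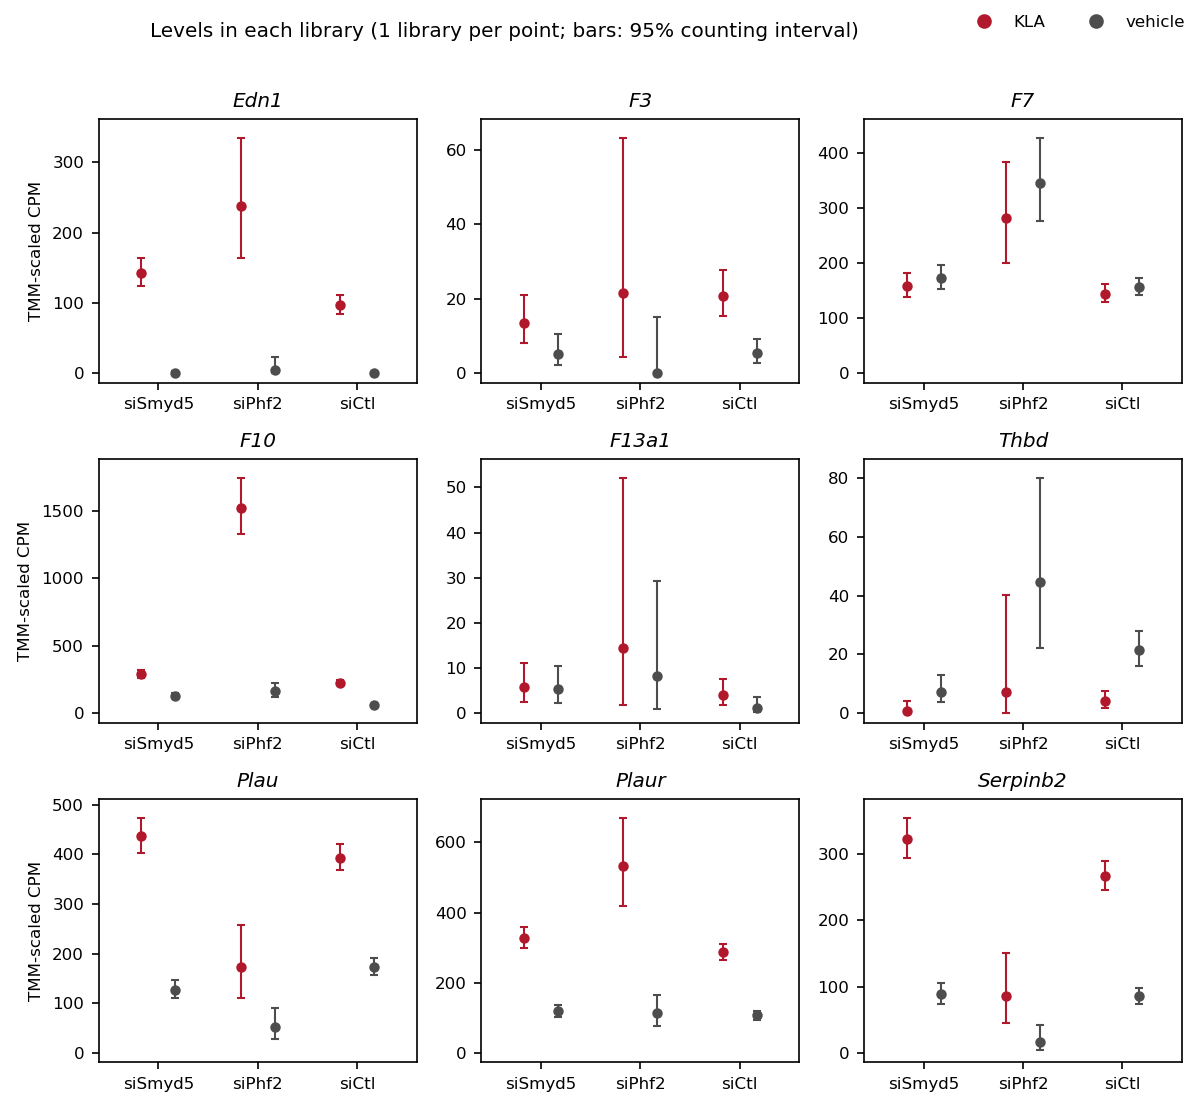
Level of each gene (TMM-scaled CPM, linear axis from 0) in each library, with KLA and vehicle side by side in the siSmyd5, siPhf2 and siCtl arms; 1 library a point, bars give the 95% counting interval. Edn1 stands at 97.2 to 238 CPM with KLA and at no more than 4.06 CPM with vehicle.

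Edn1 (NM_010104, mm9 chr13:42396639-42403358) was close to silent without KLA. It had 201 reads with KLA and 0 with vehicle in siSmyd5, 33 and 1 in siPhf2, and 219 and 1 in siCtl. On the TMM scale that was 143, 238 and 97.2 CPM with KLA, against 0, 4.06 and 0.410 CPM with vehicle. Every KLA library lay far above every vehicle library. The KLA to vehicle ratio was at least 72.0-fold in siSmyd5, against a floor of 3 reads in the vehicle library. It was 58.6 (95% counting interval 9.80 to 2382) in siPhf2 and 237 (42.1 to 9398) in siCtl. The averaged log2 fold change was 7.74 (SE 0.41, adjusted p = 4.25e-11), the 3rd largest of all genes tested. The SE, here and for every averaged value, is the absolute log2 fold change divided by the square root of the test's F statistic. Since the Edn1 vehicle libraries hold 0 or 1 read, the fitted size rests on few reads. Its SE does not carry the width of the counting intervals above. In these bulk libraries, more cells making a transcript and more transcript per cell cannot be told apart, for Edn1 and for each gene below. Endothelial markers, a list in which Emcn was at 0, summed to 21.6 to 36.2 CPM with KLA and 36.3 to 47.6 CPM with vehicle. Most of those reads are of Kdr, with 46, 3 and 58 with KLA in siSmyd5, siPhf2 and siCtl against 54, 9 and 110 with vehicle. Cdh5 had 5, 0 and 8 reads with KLA against 0, 0 and 2 with vehicle. Their part in the Edn1 difference was not tested.

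F3 (NM_010171, chr3:121426455-121437970), the trigger of the cascade, rose, from low levels. It had 19 reads with KLA and 8 with vehicle in siSmyd5, 3 and 0 in siPhf2, and 47 and 13 in siCtl. That was 13.5, 21.6 and 20.9 CPM with KLA, against 5.29, 0 and 5.33 CPM with vehicle. The values of the agents do not overlap, but the 0 in siPhf2 has an upper bound of 15.0 CPM, above the siSmyd5 KLA value. The ratio was 2.55 (1.07 to 6.74) in siSmyd5 and 3.91 (2.08 to 7.88) in siCtl; siPhf2 had no more than 3 reads on either side and gives none. Over all arms the log2 fold change was 1.83 (SE 0.41, adjusted p = 0.00286). The call was lost in limma on log2 values (adjusted p = 0.0774 and 0.240 with the larger and the smaller pseudocount) and without any 1 of the siSmyd5 or siCtl libraries (adjusted p = 0.117 to 0.576).

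F7 and F10 stand next to each other on mouse chromosome 8 and answered KLA differently. F7 (NM_010172, chr8:13026034-13035809) ends 1499 bases before F10 (NM_001242368, chr8:13037308-13056676) begins, both on the plus strand. F7, the protease that tissue factor activates, had 159, 281 and 145 CPM with KLA in siSmyd5, siPhf2 and siCtl, against 174, 345 and 157 CPM with vehicle. The KLA value was the lower one in each arm, but the ratios of 0.916 (0.763 to 1.10), 0.814 (0.542 to 1.20) and 0.923 (0.794 to 1.07) all have intervals that include equality. Its averaged log2 fold change was -0.16 (SE 0.19, adjusted p = 0.654).

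F10, the zymogen of factor Xa, had 408, 211 and 508 reads with KLA in siSmyd5, siPhf2 and siCtl, against 192, 40 and 146 with vehicle. Its levels were 290, 1522 and 225 CPM with KLA, against 127, 163 and 59.9 CPM with vehicle. All KLA libraries lay above all vehicle libraries, with the siPhf2 KLA library far above the rest. The KLA to vehicle ratio was 2.28 (1.92 to 2.73), 9.36 (6.65 to 13.5) and 3.76 (3.12 to 4.56) in the same order of arms. The averaged log2 fold change was 2.006 (SE 0.27, adjusted p = 1.53e-05), a 4.02-fold rise; without the siPhf2 arm it was 1.52 (adjusted p = 1.80e-15), and in limma with 1 CPM added the call was lost (adjusted p = 0.0880). The second F10 transcript, NM_007972, had nearly the same reads, 405, 206 and 500 with KLA against 191, 40 and 142 with vehicle.

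Set against F7 in the same library, F10 needs no scaling between libraries. This pair, like the pairs below, was chosen after its values were seen. There were 1.82 reads of F10 per read of F7 with KLA against 0.730 with vehicle in siSmyd5, a 2.49-fold change (1.93 to 3.22, conditional exact interval). The same ratio was 5.41 against 0.471 in siPhf2, an 11.5-fold change (6.71 to 19.7). In siCtl it was 1.56 against 0.382, a 4.08-fold change (3.20 to 5.20). F10 thus passed F7 in reads with KLA in each arm and stood below it with vehicle in each.

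**Figure D2:**
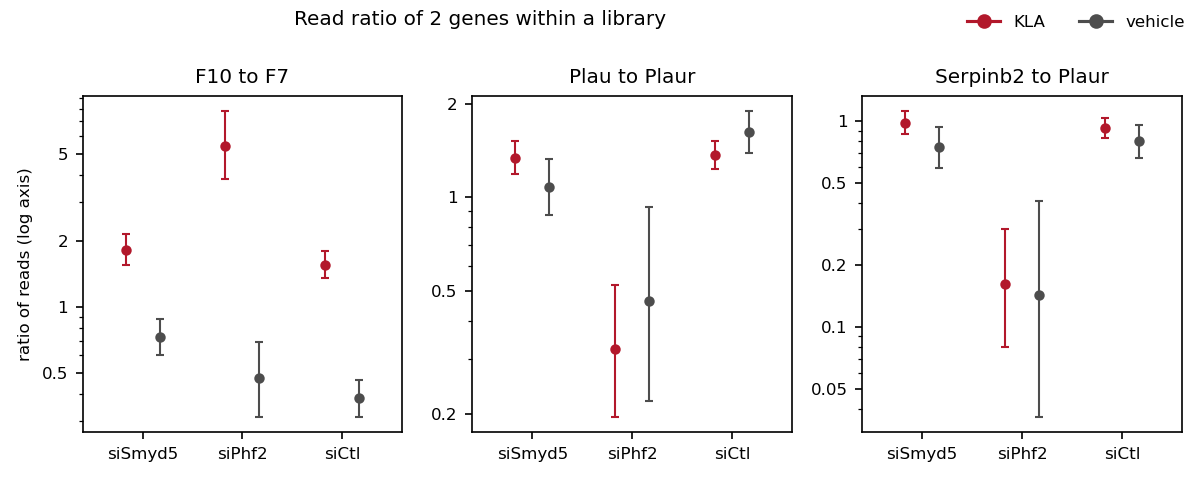
Reads of 1 gene per read of another within each library (log axes), for F10 to F7, Plau to Plaur and Serpinb2 to Plaur, KLA beside vehicle in the siSmyd5, siPhf2 and siCtl arms; bars give 95% counting intervals. F10 to F7 is above 1 with KLA and below 1 with vehicle in every arm, and the Plau and Serpinb2 ratios to Plaur are lowest in the libraries labelled siPhf2.

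F13a1 (NM_028784, chr13:36959047-37141082), the fibrin cross-linker's A subunit, stayed near the detection limit. It had 8, 2 and 9 reads with KLA in siSmyd5, siPhf2 and siCtl, against 8, 2 and 3 with vehicle. Ratios were 1.07 (0.352 to 3.29) in siSmyd5 and 3.24 (0.81 to 18.6) in siCtl, so no difference between the agents was detectable at this depth.

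Thbd (NM_009378, chr2:148230207-148233924), the thrombin receptor of the anticoagulant protein C pathway, fell. It had 1 read with KLA and 11 with vehicle in siSmyd5, 1 and 11 in siPhf2, and 9 and 52 in siCtl. That was 0.710, 7.21 and 3.99 CPM with KLA, against 7.27, 44.7 and 21.3 CPM with vehicle. The KLA libraries all lay below the vehicle libraries, by a narrow margin between the siPhf2 KLA and the siSmyd5 vehicle library. The ratio was 0.0977 (0.00227 to 0.672) in siSmyd5, 0.161 (0.00375 to 1.11) in siPhf2 and 0.187 (0.0811 to 0.383) in siCtl. The fit over all arms gave a log2 fold change of -2.52 (SE 0.45, adjusted p = 0.000331). It was not called in limma on log2 values (adjusted p = 0.0749 and 0.0865), nor without the siCtl vehicle (0.257) or siCtl KLA library (0.130). In the siCtl arm F3 stood at 5.22 reads per read of Thbd with KLA against 0.25 with vehicle, a 20.9-fold change (7.53 to 59.9).

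**Figure D3:**
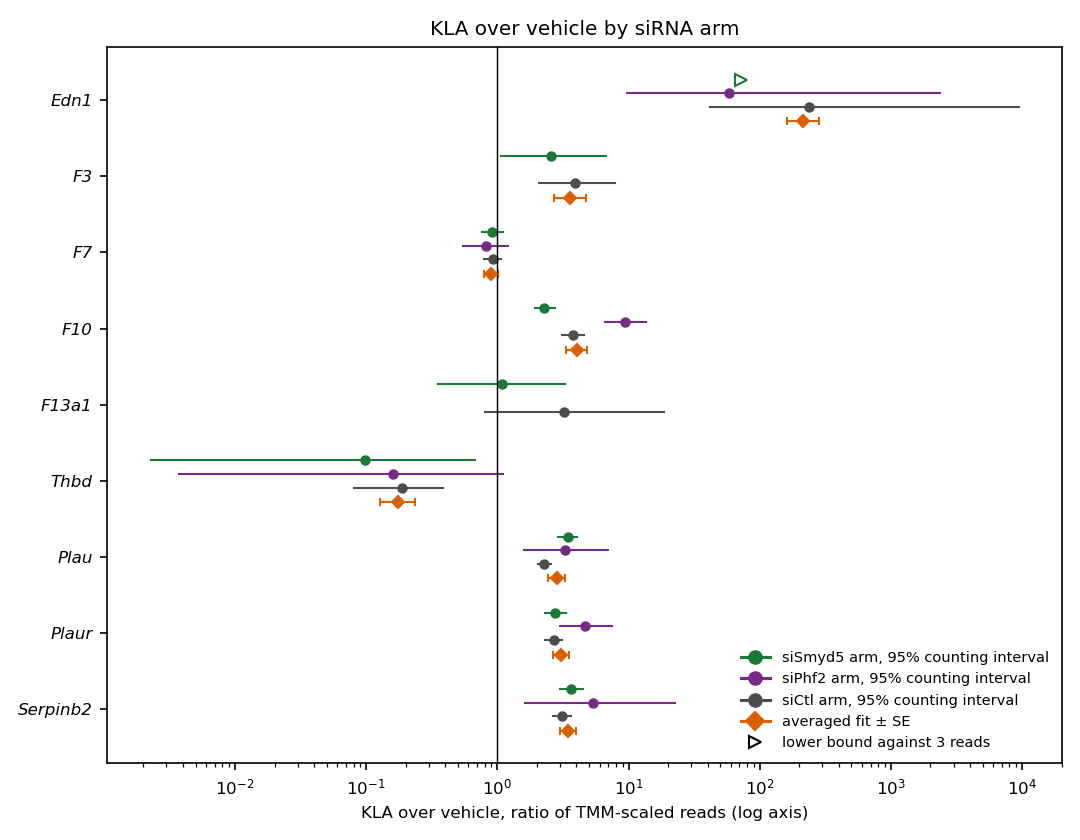
KLA over vehicle for each gene (ratio of TMM-scaled reads, log axis), by arm with 95% counting intervals and, as diamonds, the averaged fit with its SE; the open triangle is a lower bound against 3 reads, and pairs with no more than 3 reads on either side are left out. Edn1 lies far to the right, Thbd is the one gene to the left with an averaged call, and F7 lies close to 1.

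The urokinase receptor, urokinase and its inhibitor PAI-2 all rose. Plaur (NM_011113, chr7:25247519-25260892), the urokinase receptor, had 328, 534 and 288 CPM with KLA in siSmyd5, siPhf2 and siCtl, against 118, 114 and 107 CPM with vehicle. The vehicle libraries were close together and all below the KLA libraries. The ratio was 2.77 (2.32 to 3.309), 4.69 (2.998 to 7.53) and 2.69 (2.32 to 3.11), and the averaged log2 fold change was 1.62 (SE 0.21, adjusted p = 7.05e-06).

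Plau (NM_008873, chr14:21655884-21662610), urokinase itself, had 438, 173 and 394 CPM with KLA, against 128, 52.8 and 173 CPM with vehicle in the same arms. KLA was higher within each arm, while the siPhf2 KLA library stood no higher than the siCtl vehicle library, both at 173 CPM. The ratio was 3.43 (2.91 to 4.05) in siSmyd5, 3.28 (1.60 to 7.01) in siPhf2 and 2.27 (2.02 to 2.56) in siCtl. The siCtl call by size was lost by a narrow margin when scaled to total reads (log2 ratio 0.996) or without Rn45s (0.997). The averaged log2 fold change was 1.50 (SE 0.21, adjusted p = 2.65e-05).

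Serpinb2 (NM_011111, chr1:109408087-109422177), the urokinase inhibitor, had 323, 86.5 and 267 CPM with KLA, against 88.6, 16.3 and 85.7 CPM with vehicle. The siPhf2 pair rests on 12 reads with KLA and 4 with vehicle, and its KLA value fell among the vehicle values of the other arms. The ratio was 3.65 (3.004 to 4.46) in siSmyd5, 5.32 (1.61 to 22.6) in siPhf2 and 3.11 (2.65 to 3.66) in siCtl. Averaged over the arms, its log2 fold change was 1.79 (SE 0.21, adjusted p = 2.40e-06). On average the activator rose 2.84-fold, the receptor 3.07-fold and the inhibitor 3.46-fold. Within the siCtl arm there were 1.48 reads of Plau per read of Serpinb2 with KLA against 2.02 with vehicle, a 0.731-fold change (0.598 to 0.892). The same change was 0.940-fold (0.724 to 1.22) in siSmyd5 and 0.615-fold (0.121 to 2.63) in siPhf2. Serpinb2 per read of Plaur changed 1.32-fold (1.01 to 1.72) with KLA in siSmyd5, 1.14-fold (0.309 to 5.23) in siPhf2 and 1.16-fold (0.931 to 1.44) in siCtl.

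Counted over single arms, KLA was higher by size for 6 of 8 members in siSmyd5, 5 in siPhf2 and 6 in siCtl, and lower for 1, 0 and 1. A call by size needed a log2 ratio of at least 1 either way with 2 reads added and an interval that excludes equality; 8.74%, 8.31% and 7.18% of genes were called higher and 3.5%, 6.65% and 2.68% lower in those arms. Across arms, 4 tested members had no overlap with KLA higher (Edn1, F3, F10 and Plaur), as did 10.7% of all genes, and Thbd had none with KLA lower, as did 8.67%. These counts use the values alone. The counting intervals of F3, F10 and Thbd do overlap between the agents.

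Per kilobase of transcript, the siCtl vehicle library was led by F7 (84.7 CPM per kilobase), Plaur (77.1) and Plau (74.2), whose counting intervals overlap. Below them came Serpinb2 (43.2), F10 (22.3), Thbd (5.74), F3 (2.85), F13a1 (0.319) and Edn1 (0.175); the last pair rest on 3 and 1 reads and cannot be ordered. In the siCtl KLA library the order of levels was Plaur (207), Plau (169), Serpinb2 (134), F10 (84.0), F7 (78.1), Edn1 (41.5), F3 (11.2), Thbd (1.07) and F13a1 (1.03). There F10 and F7 have overlapping intervals, as do Thbd and F13a1. Edn1 was among the lowest genes with vehicle and stood above F3 with KLA.

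Many other genes of these systems had too few reads for the KLA test, and those of the liver-made cascade had few or no reads. Most of those tested did not pass, and neither did most of all genes tested, of which 15.8% passed. Of 21 other coagulation factors and receptors, 6 were tested and 0 passed (8 had 0 reads in all libraries, among them F2 and the fibrinogen genes). Of 13 anticoagulants, 6 were tested and 1 rose, Anxa5 (log2 fold change 0.65, adjusted p = 0.0417), which covers exposed phosphatidylserine. Of 16 further plasminogen genes in the table, 10 were tested and 3 rose. Among them were the transglutaminase gene Tgm2 (1.56, adjusted p = 1.28e-05) and Thbs1, thrombospondin-1 (0.997, adjusted p = 0.00396). Plat, the tissue-type activator, did not pass (0.91, adjusted p = 0.169), and Plg had no read in any library.

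Of 9 other endothelin genes, 3 were tested and 1 rose, Ednrb, the endothelin B receptor (log2 fold change 1.25, adjusted p = 0.0123). Ednrb had 25 reads with KLA and 13 with vehicle in siSmyd5, 0 and 0 in siPhf2, and 60 and 25 in siCtl. The converting enzymes Ece1 and Ece2 did not pass, and Edn2 and Edn3 had no reads. Of 8 contact and kinin genes 2 were tested, of which carboxypeptidase D (Cpd) rose (1.50, adjusted p = 1.51e-05).

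**Figure D4:**
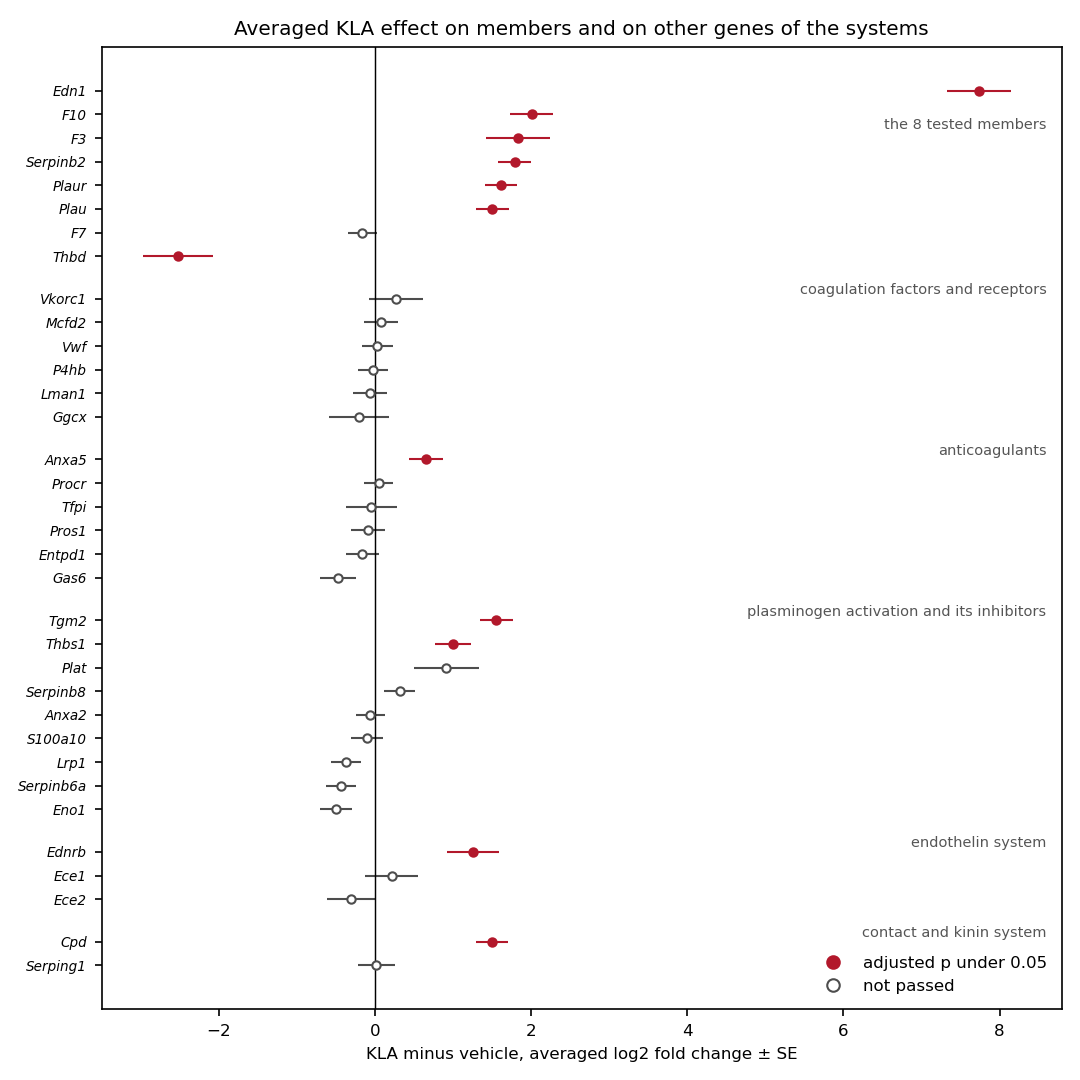
Averaged KLA log2 fold change with its SE for the 8 tested members and the tested genes of 5 related lists, 1 of them not shown; filled points have an adjusted p under 0.05. Edn1 at 7.74 and Thbd at -2.52 are the extremes, and the 6 other coagulation genes lie close to 0 with open points.

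Few members passed in the siSmyd5 arm, where Smyd5 itself was lower with vehicle and showed no lower level with KLA. Averaged over agents, 0 of 8 rose and 1 fell, Thbd, where 6.39% of all genes passed, 2.74% upward and 3.65% downward (42.9% of those that passed rose, against 26.6% scaled to total reads and 28.5% without Rn45s); 2 members had an unadjusted p under 0.05. The members' median log2 fold change was 0.15, beside 0.0036 over all genes. Thbd had 0.710 CPM in siSmyd5 against 3.99 CPM in siCtl with KLA, and 7.27 CPM against 21.3 CPM with vehicle. The vehicle ratio was 0.341 (0.160 to 0.661), on 11 reads against 52, and the KLA ratio was 0.178 (0.00406 to 1.28), on 1 against 9. The averaged log2 fold change was -1.65 (SE 0.47, adjusted p = 0.0444). That call was lost when libraries were scaled to total reads (0.0574), in limma-voom (0.107), with transcripts summed (0.179), in limma on log2 values, and without any 1 of the siSmyd5 or siCtl libraries; DESeq2 gave it no adjusted p. Without the siPhf2 arm it was -1.70 (adjusted p = 0.00181).

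F10 was higher in siSmyd5, at 290 CPM against 225 CPM in siCtl with KLA and at 127 CPM against 59.9 CPM with vehicle. The ratios were 1.29 (1.13 to 1.47) and 2.12 (1.70 to 2.65), the second of which was called higher by size; that call was lost when scaled to total reads (log2 ratio 0.94) or without Rn45s (0.95). With vehicle F10 was the 1 member called higher and Thbd the 1 called lower, where 2.6% of genes were called higher and 5.42% lower. The averaged fit did not pass (0.75, adjusted p = 0.153), while it passed without the siPhf2 arm (0.61, adjusted p = 0.000172) and without either siPhf2 library alone (0.64 in both, adjusted p = 0.000238 and 0.000288). Relative to F7 in the same library, F10 was 1.17-fold (0.938 to 1.46) that of siCtl with KLA and 1.91-fold (1.45 to 2.52) with vehicle. Edn1 stood at 143 CPM against 97.2 CPM in siCtl with KLA, a ratio of 1.47 (1.21 to 1.79). Its averaged value was 0.53 (adjusted p = 0.235, and 0.0306 to 0.0333 without 1 or both siPhf2 libraries). With KLA no member was called by size in either direction, where 1.83% of genes were called higher and 3.76% lower. Serpinb2, Plaur and F7 had ratios of 1.21, 1.14 and 1.10 with KLA and 1.03, 1.10 and 1.11 with vehicle. F13a1, on 8 reads against 3 with vehicle, had a ratio of 4.30 (1.03 to 25.1), and on 8 against 9 with KLA one of 1.42 (0.478 to 4.16). Of the 27 tested genes on the other lists, 0 passed in either direction for siSmyd5.

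In the libraries labelled siPhf2, where Phf2 itself was not lower on the TMM scale, the members split. With the averaged fit 3 rose (Edn1, F7 and F10) and 2 fell (Serpinb2 and Plau), where 12.6% of all genes passed, 8.12% upward and 4.52% downward (64.3% of those that passed rose, against 0.515% scaled to total reads and 19.8% without Rn45s); the medians were 0.80 for members and -0.13 for all genes. These libraries are the shallow, Rn45s-rich ones, and the part of that in the differences was not tested. Scaled to total reads, Rn45s included, Edn1, F7 and Plaur turn to -0.91, -1.09 and -1.62 on the log2 scale and F10 comes to 0.09 (adjusted p = 0.784), while the median over all genes is then -2.29 with KLA and -1.97 with vehicle. Serpinb2 and Plau are lower under each scaling used. If the siCtl and siPhf2 names were exchanged, every sign here would turn. The siSmyd5 and siPhf2 differences also share the siCtl libraries.

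**Figure D5:**
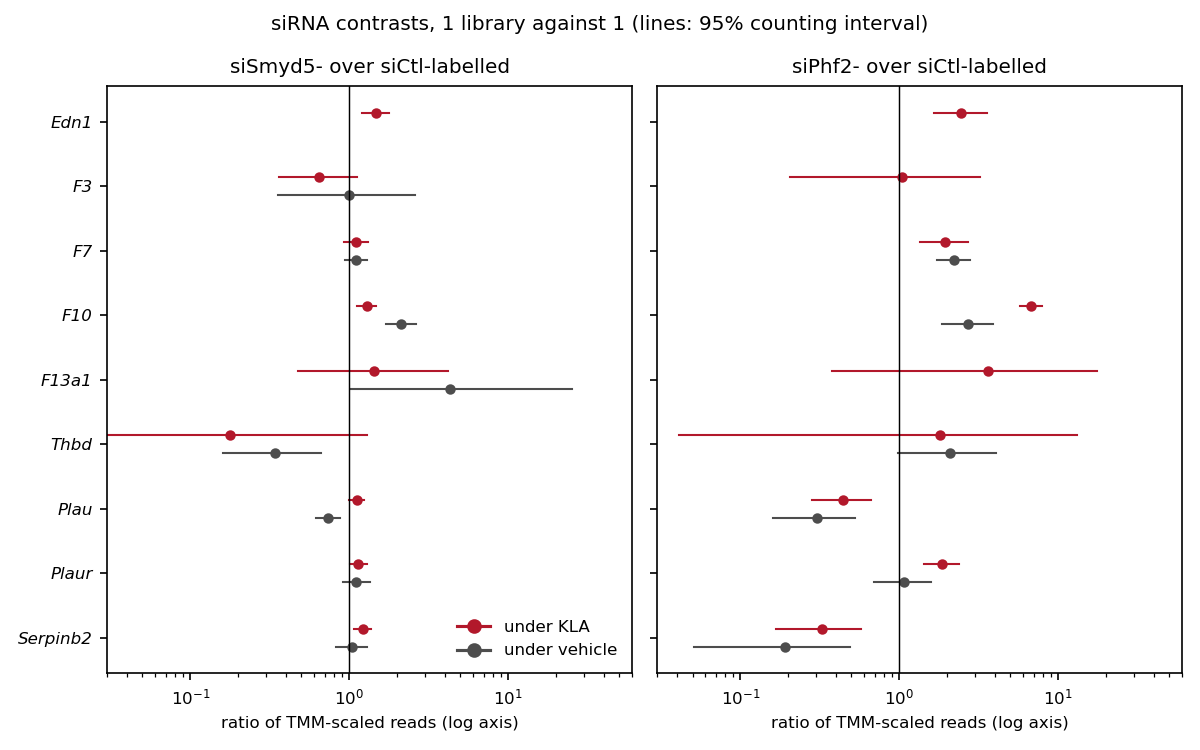
Ratio of TMM-scaled reads (log axis) in siSmyd5 over siCtl and in siPhf2 over siCtl, under KLA and under vehicle; 1 library against 1, lines give 95% counting intervals, and pairs with no more than 3 reads on either side or 0 reads in 1 library are left out. In siPhf2 over siCtl, F10 lies to the right (scaled to total reads it turns to -0.62 on the log2 scale under vehicle) and Plau and Serpinb2 to the left under both agents.

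F10 stood at 1522 CPM in siPhf2 against 225 CPM in siCtl with KLA, a ratio of 6.75 (5.72 to 7.94). With vehicle it stood at 163 CPM against 59.9 CPM, a ratio of 2.71 (1.86 to 3.87). Its averaged log2 fold change was 2.29 (SE 0.34, adjusted p = 0.000131). Limma on log2 values lost the call (adjusted p = 0.0561 and 0.0885), and without the siPhf2 KLA library the value was 1.20 (adjusted p = 0.00331). Per read of F7, F10 was 3.47-fold (2.38 to 5.16) that of siCtl with KLA and 1.23-fold (0.785 to 1.91) with vehicle. F7 itself was 1.94-fold (1.36 to 2.72) and 2.20-fold (1.72 to 2.80) that of siCtl, with an averaged value of 1.06 (adjusted p = 0.00657). That call was lost when scaled to reads without Rn45s (adjusted p = 0.0789) and in limma with 1 CPM added (adjusted p = 0.0547). Edn1 with KLA was 2.45-fold (1.64 to 3.54) that of siCtl. Its averaged value was 1.33 (adjusted p = 0.0262), not called when scaled without Rn45s (0.0970), with no filter on low reads (0.0587), with transcripts summed (0.0929), in DESeq2 (0.121) or in limma on log2 values (0.143 and 0.167). Leaving out 1 siCtl or siSmyd5 library ended the calls of F7 (adjusted p = 0.0707 to 0.378) and Edn1 (0.0997 to 0.880). So did leaving out the siPhf2 KLA library for Edn1 (3.87, adjusted p = 0.195).

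Plau stood at 173 CPM in siPhf2 against 394 CPM in siCtl with KLA, a ratio of 0.440 (0.280 to 0.659). With vehicle it stood at 52.8 CPM against 173 CPM, a ratio of 0.305 (0.161 to 0.528). Serpinb2 stood at 86.5 CPM against 267 CPM with KLA, 0.325 (0.167 to 0.571), and at 16.3 CPM against 85.7 CPM with vehicle, 0.190 (0.0512 to 0.493). The averaged log2 fold changes were -1.43 (SE 0.31, adjusted p = 0.00422) for Plau and -1.89 (SE 0.37, adjusted p = 0.00181) for Serpinb2. In limma with 1 CPM added the Plau call was lost (adjusted p = 0.0513) and the Serpinb2 call held. Without the siCtl vehicle library neither was called (adjusted p = 0.253 and 0.0642). By size 2 members were higher and 2 lower with each agent, where 7.85% of genes were called higher and 7.24% lower with KLA, and 10.8% and 8.87% with vehicle. With a correction for transcript length the KLA values of Plau and Serpinb2 were -0.67 and -0.96 and no longer called by size. So corrected, F7 (1.66) and Plaur (1.77) were called higher with KLA. That made 4 members higher and 0 lower with KLA, where 718 and 468 of 7995 genes were. With vehicle the counts stayed at 2 and 2.

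The urokinase receptor did not follow Plau and Serpinb2. Plaur was 1.86-fold (1.44 to 2.36) that of siCtl with KLA and 1.06-fold (0.693 to 1.57) with vehicle, and its averaged value did not pass (0.56, adjusted p = 0.177). It passed without the siPhf2 vehicle library (0.88, adjusted p = 0.00278) and, in the other direction, when scaled to total reads (-1.62, adjusted p = 5.27e-05). Per read of Plaur in the same library, Plau was 0.237-fold (0.141 to 0.385) that of siCtl with KLA and 0.287-fold (0.134 to 0.586) with vehicle. Serpinb2 per read of Plaur was 0.175-fold (0.0857 to 0.328) and 0.178-fold (0.0449 to 0.523). Plau per read of Serpinb2 was 1.36-fold (0.646 to 3.0) and 1.61-fold (0.489 to 6.86), intervals that include equality. Fibroblast markers summed to 346 CPM in siPhf2 against 939 CPM in siCtl with KLA and to 496 CPM against 898 CPM with vehicle, with reads from all 6. Neutrophil markers summed to 0 CPM in siPhf2 against 98.5 CPM in siCtl with KLA and to 32.5 CPM against 99.3 CPM with vehicle. Most of these reads are of Mmp8, at 0 against 202 reads with KLA and 3 against 206 with vehicle. The part of either list in the Plau and Serpinb2 differences was not tested.

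F3 and Thbd, the low-level pair, did not pass (-0.49 and 1.03, adjusted p = 0.775 and 0.241). Scaled to total reads, F3 passed at -2.64 (adjusted p = 0.00386) and Thbd turned to -1.05 (adjusted p = 0.0577). F3 had 3 reads in siPhf2 against 47 in siCtl with KLA, a ratio of 1.04 (0.207 to 3.22), and 0 against 13 with vehicle. Thbd was 1.81-fold (0.0412 to 13.03) that of siCtl with KLA and 2.10-fold (0.986 to 4.07) with vehicle.

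Some genes of the other lists differed in the averaged fit between the libraries labelled siPhf2 and siCtl. Higher were Vwf (log2 fold change 2.39, adjusted p = 3.93e-06), Lrp1, the clearance receptor for urokinase complexes (3.17, adjusted p = 4.32e-08), and Tgm2 (0.94, adjusted p = 0.0203). Procr (-1.16, adjusted p = 0.0376), Serpinb8 (-1.61, adjusted p = 0.0374), Eno1 (-1.42, adjusted p = 0.0289) and Serping1 (-2.56, adjusted p = 0.0157) were lower. These lower calls rest on few reads in siPhf2. In that order the genes had 7, 2, 1 and 4 reads there with KLA, and 10, 5, 13 and 0 with vehicle. Of all genes, 8.12% passed upward and 4.52% downward. These values are on the TMM scale, and no other scaling or setting is given for these genes. Nor is a correction for transcript length, which moved the siPhf2 values of Plau, Serpinb2, F7 and Plaur with KLA. The part of transcript length in these calls was not tested. Ednrb, at 0 reads in both siPhf2 libraries, was also called lower (adjusted p = 0.0483), a call whose fitted size is no bound.

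The genes whose pattern over the 6 libraries was nearest to each member were found by the root mean square distance of centred log2 levels. Nearest to Edn1 were Ifit1 (0.26), Ifit2 (0.40) and Ccl4 (0.46), to Plaur Mier3 (0.16), Zbtb5 and Abcb1b, and to F7 Sepp1 (0.057), Esyt1 and Hectd3. Serpinb2 lay nearest to Dusp5 (0.21), Bcl10 and Atp13a4, and Plau to Btg1 (0.23), Lztfl1 and Osgin2. F10 lay nearest to Mov10 (0.18), Mfsd7a and BC013712, F3 to Ccl9 (0.22), Gfpt2 and Cdyl, and Thbd to Foxo3 (0.41), Mnt and Tsc22d1. Among the members themselves the closest pair was Serpinb2 and Plau (0.41) and the farthest Edn1 and Thbd (4.07).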

How the data were processed

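Poly(A) RNA was sequenced from 6 libraries, 1 for each of 3 siRNAs and 2 agents, grouped by title and agent label. The deposited signal is reads per RefSeq transcript that the authors scaled to 10000000 tags, per the file headers. HOMER and build mm9 are named in the submitters' processing notes; the aligner, and how strand and multiple matches were handled, is not given in the sources used here. No molecular identifiers are described, so intervals cover counting error only.

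Whole reads were recovered from the deposited signal (tolerance 0.02), with the exchanged header totals described above. Averaged effects came from edgeR 4.0.16 in R 4.3.3 (additive siRNA and agent, TMM, 2-sided quasi-likelihood, Benjamini-Hochberg 0.05, 7995 genes, 2 residual degrees of freedom). A run on simulated data checked the code only. It gave every gene the same dispersion and no library an excess of Rn45s, so it does not test the siPhf2 values. Nothing says that libraries are separate cultures, so p-values describe the spread among these libraries, which may be technical. As the deposited unit is a scaled signal, limma 3.58.1 on log2 CPM (15.2 or 1 added), limma-voom, DESeq2 1.42.0 and other scalings served as alternatives. Summing transcripts left the reads of Edn1 and Thbd as they were, since each has 1 transcript, and changed only the fit around them. The 2 Serpinb2 transcripts hold the same reads, which the sum counts again. Contrasts of 1 library against 1 carry no p-value. Their ratios have exact conditional Poisson 95% intervals with no reads added, and a floor of 3 reads where a library had 0. The siRNA and agent effects on each other cannot be tested with 1 library a group.

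The genes, lists and alternatives were chosen with earlier results of these data known. Named genes are the 9 members, up to 4 called genes of each list for KLA, and the 3 nearest patterns of each tested member; other names were added after their values were seen. Promoters came from RefSeq on GRCm38.p6, of which 7 members had a window, and mm9 coordinates from the deposited table. Some genes of the lists are not reported here.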

Additional observations from a re-analysis of the deposited data

Results flagged for a closer look

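In the siSmyd5 arm Plau stood slightly above siCtl with KLA and below it with vehicle. With KLA it stood at 438 CPM in siSmyd5 against 394 CPM in siCtl, a ratio of 1.11 (1.002 to 1.23; log2 0.15). With vehicle it stood at 128 CPM against 173 CPM, a ratio of 0.737 (0.618 to 0.876; log2 -0.44). Neither value was called by size, and the lower bound with KLA lies close to equality. Scaled to total reads, the log2 values were 0.11 with KLA and -0.56 with vehicle. The intervals cover counting error only, not the choice of scaling. The difference between the agents was not tested, since each value is 1 library against 1.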

How the results depend on the processing

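The averaged KLA calls of Edn1, Serpinb2, Plau and Plaur held in every setting run, while those of F3, Thbd and F10 were lost in the settings named above. No paired analysis was possible because the labels give no replicate numbers to pair by; KLA and vehicle were compared within siRNA arms in the averaged fit itself. Depth limits F13a1, Thbd, F3 and every siPhf2 value. The cause of the changes below was not tested.

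For KLA, 1261 genes passed; 685 did with a minimum of 50 reads, 607 in DESeq2, 404 and 245 in limma with the larger and smaller pseudocount, 2112 without the siPhf2 arm, and 435 to 2052 with 1 library left out. Of those, 70.8% rose, against 55.5% scaled to total reads and 53.2% scaled without Rn45s. For siSmyd5, 511 passed; 222 did scaled to total reads, 101 with 50 reads, 14 in DESeq2, 17 in limma-voom, 0 in both limma fits (490 and 445 at an unadjusted p under 0.05), 1 with transcripts summed, 2030 with names exchanged, 2198 without the siPhf2 arm and 1 to 2210 with 1 library left out. For siPhf2, 1010 passed; 7385 did scaled to total reads, 1710 without Rn45s, 485 in DESeq2, 642 and 206 in limma, 583 with transcripts summed and 211 to 1459 with 1 library left out.

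Of the members, 7 passed for KLA, 4 in limma with 1 CPM added, and 5 to 7 with 1 library left out. For siSmyd5 1 passed, with 0 scaled to total reads, with 50 reads, in DESeq2, limma-voom and both limma fits, and with transcripts summed, 5 with names exchanged, 3 without the siPhf2 arm, and 0 to 3 with 1 library left out. For siPhf2 5 passed, 3 without Rn45s, 3 and 1 in limma, and 1 to 6 with 1 library left out. By size, the siSmyd5 vehicle count was 1 scaled to total reads, without Rn45s or with 50 reads, the siSmyd5 KLA count was 3 with names exchanged, and the siPhf2 vehicle count was 2 without Rn45s.

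Signs turned in these log2 values, each called in at least 1 of the settings compared; F3 and Thbd in siPhf2 are given above. Scaled to total reads, siPhf2 gave -0.91 for Edn1, -1.09 for F7 and -1.62 for Plaur averaged, -0.94, -1.91, -1.28 and -1.35 for Edn1, F3, F7 and Plaur with KLA, and -0.92, -0.62 and -1.94 for F7, F10 and Plaur with vehicle. With names exchanged, siSmyd5 gave -0.92, -1.54 and 1.30 for F7, F10 and Plau averaged, -2.38 for F10 with KLA, and -0.35 and 1.24 for F10 and Plau with vehicle. So exchanged, siPhf2 gave -1.33, -1.06, -2.29, 1.89 and 1.43 for Edn1, F7, F10, Serpinb2 and Plau averaged, -1.28, -2.75, 1.61 and 1.18 for Edn1, F10, Serpinb2 and Plau with KLA, and -1.13, -1.42, 2.30 and 1.68 for F7, F10, Serpinb2 and Plau with vehicle.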
